A study of Mus musculus with 6 samples.

Results

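Foxa2 and 9 other forkhead genes were described here in neonatal mouse prostate cells sorted for activity of the s-SHIP promoter. The genes were Foxa1, Foxa2, Foxa3, Foxc1, Foxc2, Foxf2, Foxq1, Foxp1, Foxp2 and Foxo1, taken as every probe that carried one of these names. They were covered by 18 probes, out of 36282 gene or transcript names on the array, and 34 other forkhead symbols were on it. The members were chosen on earlier results of this same contrast: Foxa2 was taken up because one of its probes was the single probe of 37008 tested (0.00270%) with a limma adjusted p under 0.05 (with the replicate number as a block, 0 probes passed), and the others were proposed beside it with the contrast known. The differences of the 10 genes are therefore a description, and no test is given for them.

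The cells came from prostates of untreated 6-day-old male FVB/N mice that carried the Tg 11.5kb-GFP transgene, in which the s-SHIP promoter drives GFP. Lineage-depleted cells positive for Sca-1 and CD49f (LSC cells, the basal and stem cell gate) were sorted by GFP into LSC GFP+ and LSC GFP- cells, with 3 samples of each on 6 one-colour arrays. Both populations carry the transgene and share strain, sex, age and gate, and were separated by GFP. Markers of other cell types also differed between them, as given below. The same promoter also marks vascular smooth muscle cells. The paper reports that these cells had brighter GFP and little or no Sca-1 and CD49f, the markers of the gate. Whether a sample pooled several animals is not given in the sources used here, so the spread between samples may be partly technical. Each array had between 65.8% and 75.7% of its probes well above background. In bulk RNA, fewer cells of a type and less RNA per cell cannot be told apart.

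Forkhead proteins are transcription factors that bind DNA through a winged helix domain. The Foxa members, Foxa1, Foxa2 and Foxa3, are pioneer factors that bind their sites in closed chromatin and were first studied in liver and other endoderm. In the prostate Foxa1 is known from luminal cells and their secretory genes, while Foxa2 is known from the budding epithelium of the developing gland and from neuroendocrine tumours. Foxc1, Foxc2 and Foxf2 are known mainly from mesenchyme and vessels, Foxq1 from epithelia, Foxp1 and Foxp2 as repressors, and Foxo1 as a factor that Akt keeps out of the nucleus.

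The Foxa2 signal was measured by a pair of 60-base probes on the minus strand of mm9, a brighter probe at chr2:147868669-147868728 and a dimmer probe at chr2:147868614-147868673. The array's annotation places both in the RefSeq transcript of Foxa2. They lie end to end, share 5 bases and together cover 115 bases. The ends of both probes are shown because the Foxa2 result rests on them. Capitals mark the shared bases in the first and the letters ATTAAA, a known variant of the polyadenylation signal, in the second, where they are followed by 17 bases of probe.
Foxa2 brighter probe, last 30 bases: gctttatttatggcttataaatgtgTGTTC
Foxa2 dimmer probe, last 30 bases: aatctatATTAAAgtgttattgccgatttt

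Foxa2 was about 4.7 times higher in LSC GFP+ cells. Signals are given as log2 of the processed signal minus the array's 75th percentile, so that 0 is the level of that percentile. At the brighter probe the LSC GFP+ samples read 2.69, 2.87 and 2.47, and the LSC GFP- samples read 0.88, 0.34 and 0.12 (replicates 1, 2 and 3 in this order throughout). Every LSC GFP+ sample stood above every LSC GFP- sample, and the lowest of the former was well apart from the highest of the latter. The means were 2.68 ± 0.20 and 0.44 ± 0.39 (SD, n = 3 each), a log2 difference of 2.23.

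The dimmer Foxa2 probe showed the same separation. The LSC GFP+ samples read -1.46, -1.50 and -1.52, against -4.20, -4.32 and -4.03 in LSC GFP- cells. The LSC GFP+ samples were nearly level with each other, with an SD of 0.03, and the LSC GFP- samples had an SD of 0.15. The log2 difference was 2.69, or 6.45-fold. In LSC GFP- cells this probe was well above background on 2 of the 3 arrays, so its lower level sits near the limit of detection. Normexp background correction models the background in place of the scanner software's own subtraction, and was run with an offset of 50 added to every signal. With it the difference of the dimmer probe came to 1.23, and that of the brighter probe to 2.11. Such an offset by itself lowers the differences of dim probes, here and wherever normexp is given below. The parts of the offset and of the background model were not tested.

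Foxa1 differed less and its level was high in both populations. Its single probe, at chr12:58641764-58641823 of mm9, read 3.26, 3.80 and 3.46 in LSC GFP+ cells and 2.93, 2.88 and 2.97 in LSC GFP- cells. The populations did not overlap, but replicate 1 of LSC GFP+ cells lay close to the LSC GFP- samples, which were tightly grouped. The log2 difference was 0.58 (1.49-fold).

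Foxa3, the third Foxa gene and known mainly from liver and gut, gave little signal. Its probe was well above background only on the replicate 1 array of each population. The LSC GFP+ samples read -3.72, -4.59 and -5.40, and the LSC GFP- samples -3.57, -5.13 and -5.14. The populations overlapped throughout, and no fold is given for a gene that was mostly below background in both.

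**Figure D1:**
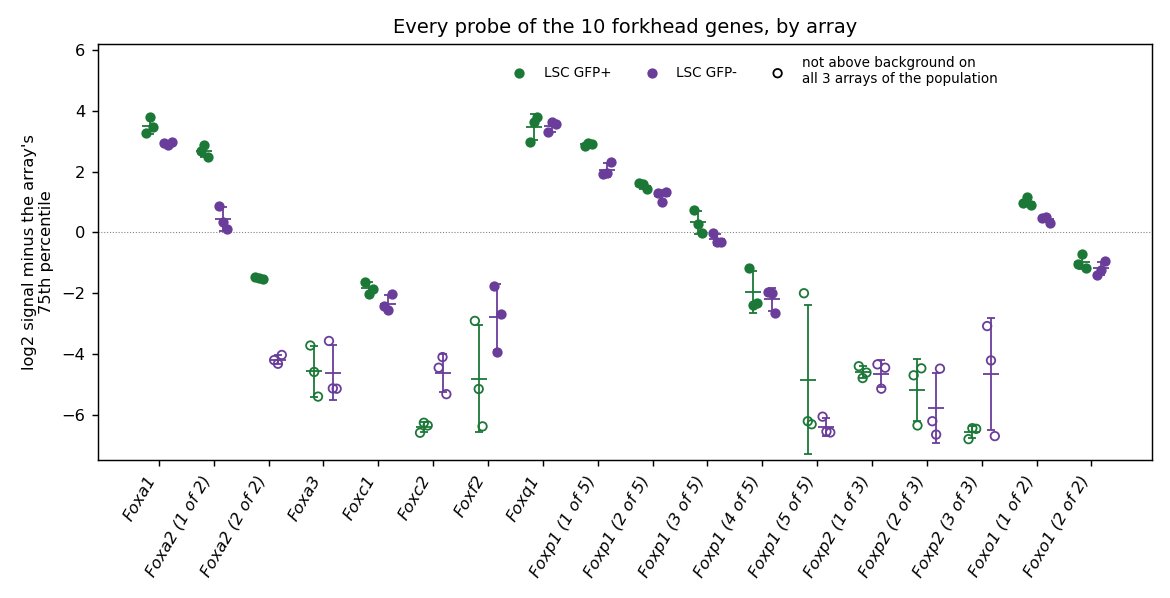
Log2 signal minus the array's 75th percentile (y axis) for each of the 18 probes of the 10 genes (x axis, probes of a gene in order of brightness), with 1 point per array, green for LSC GFP+ and purple for LSC GFP-, and bars for the mean and SD of 3 samples. Open points mark a population in which the probe was not well above background on all 3 arrays, and levels are not comparable between probes. Both Foxa2 probes stand out by the gap between the populations, 2.23 and 2.69 on the log2 scale, while Foxa3 and Foxp2 lie near background in both.

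Foxp1, a repressor expressed in many epithelia and in lymphocytes, was the member with the next largest positive difference at its brightest probe. That probe crosses a splice junction, since its 60 bases align over 4338 bases of mm9 (chr6:98885382-98889719). It read 2.84, 2.93 and 2.92 in LSC GFP+ cells and 1.91, 1.95 and 2.31 in LSC GFP- cells. The LSC GFP+ samples were nearly identical and all lay above the LSC GFP- samples, where replicate 3 was the highest. The log2 difference was 0.84 (1.79-fold).

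The remaining Foxp1 probes gave smaller differences. The probe at chr6:99112925-99112984 read 1.63, 1.58 and 1.42 against 1.31, 0.99 and 1.34, a log2 difference of 0.33, and the probe at chr6:98880084-98880143 read 0.73, 0.28 and -0.02 against -0.02, -0.33 and -0.32, a difference of 0.55. In both the populations only just failed to overlap. The probe at chr6:98956679-98956738, designed on a cDNA clone, read -1.18, -2.40 and -2.32 against -1.96, -2.00 and -2.64, and here the populations overlapped. The last of the 5 Foxp1 probes, at chr6:99102053-99102112 and also designed on a cDNA, was well above background on 1 array, LSC GFP+ replicate 1, where it read -2.00. The other 5 arrays lay between -6.58 and -6.06. LSC GFP+ replicate 1 was also the array with the most probes above background, 42132, and the part of this in the reading was not tested. The mean over the 4 tested Foxp1 probes gave a log2 difference of 0.49 in place of 0.84.

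Foxp2, known from the developing brain and lung, was at or near background. Of its 3 probes, those at chr6:15363873-15365044, which crosses a splice junction, and at chr6:15391821-15391880 were not well above background on any array. The probe at chr6:15147188-15147247, designed on a cDNA, was above background on LSC GFP- replicates 1 and 2, with -3.08 and -4.21, while LSC GFP- replicate 3 read -6.70 and the LSC GFP+ samples lay between -6.80 and -6.44. No fold can be given, since the mean of the LSC GFP- samples, -4.67, did not exceed the limit of detection in LSC GFP+ cells, -4.58.

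Foxo1, which drives stress and cell cycle arrest genes when Akt signalling is low, separated the populations at its brighter probe, at chr3:52150183-52150242. That probe read 0.97, 1.17 and 0.90 in LSC GFP+ cells and 0.49, 0.50 and 0.32 in LSC GFP- cells. All LSC GFP+ samples were higher, with an SD of 0.14 and 0.10 in the populations and a log2 difference of 0.58 (1.49-fold). At the dimmer probe, at chr3:52153289-52153348, the signals were -1.04, -0.70 and -1.16 against -1.39, -1.22 and -0.94. There the populations overlapped, replicate 3 ran the other way, and the difference was 0.22.

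Foxq1, Foxf2 and Foxc1 lie in this order within a stretch of mouse chromosome 13, with 70933 bases between the Foxq1 and Foxf2 probes and 179284 bases between the Foxf2 and Foxc1 probes. The neighbours did not share a pattern. The Foxc1 probe, at chr13:31902423-31902482, read -1.62, -2.01 and -1.85 in LSC GFP+ cells and -2.43, -2.55 and -2.04 in LSC GFP- cells. The populations were narrowly apart, with LSC GFP+ replicate 2 beside LSC GFP- replicate 3, and the log2 difference of 0.51 dropped to 0.25 with normexp background correction.

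Foxq1, at chr13:31652206-31652265, was strongly and evenly expressed. It read 2.98, 3.63 and 3.79 in LSC GFP+ cells and 3.29, 3.62 and 3.57 in LSC GFP- cells. The populations overlapped and the log2 difference of -0.03 was far below the SD of 0.43 and 0.18. Left without 1 array at a time, it ranged from -0.19 to 0.21.

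Foxf2, a gene of gut and urogenital mesenchyme, was lower in LSC GFP+ cells and near the limit of detection there. Its probe, at chr13:31723139-31723198, read -2.91, -5.15 and -6.38 in LSC GFP+ cells and -1.76, -3.93 and -2.69 in LSC GFP- cells. All 3 LSC GFP- arrays detected it above background, but of the LSC GFP+ arrays replicate 1 alone. That replicate overlapped the LSC GFP- samples, though within each replicate number LSC GFP+ was the lower, by 1.15, 1.22 and 3.69. The log2 difference was -2.02, and it came to -0.67 with normexp background correction, -2.97 without LSC GFP+ replicate 1 and -1.23 without LSC GFP+ replicate 3. These values rest in part on readings below background.

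Foxc2, known from lymphatic vessels and mesenchyme, was above background on LSC GFP- replicate 2 alone. Its probe, at chr8:123642693-123642752, read -6.59, -6.26 and -6.35 in LSC GFP+ cells and -4.45, -4.10 and -5.32 in LSC GFP- cells. Every LSC GFP+ sample was lower, but the LSC GFP- mean of -4.62 did not exceed the limit of detection in LSC GFP+ cells, -4.58, and no fold is given. Foxf1 and Foxl1, its neighbours on chromosome 8 and also mesenchymal genes, were no clearer. The Foxf1 probe was not above background on any array, and the Foxl1 probe was above it on LSC GFP+ replicate 1 (-2.85) and LSC GFP- replicates 2 and 3 (-3.12 and -3.72).

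**Figure D2:**
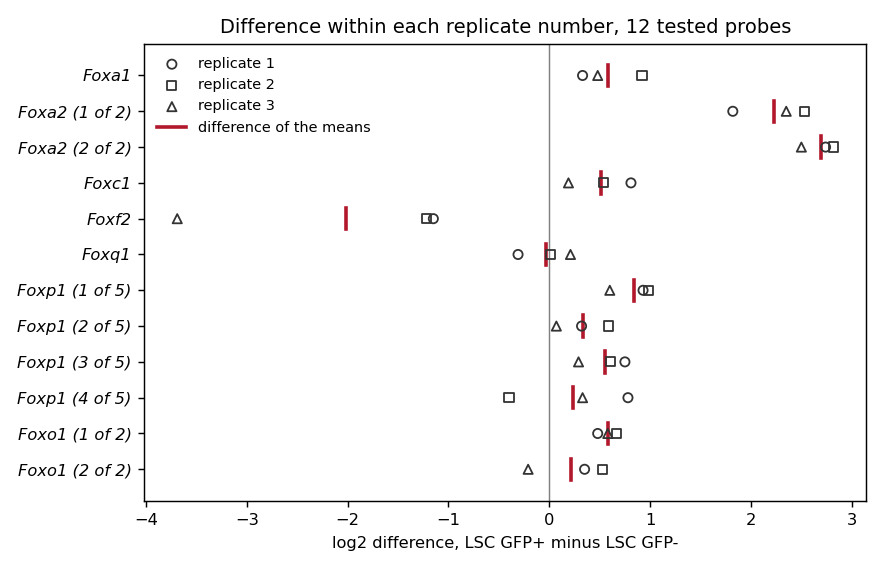
Log2 difference between LSC GFP+ and LSC GFP- samples of the same replicate number (x axis; circle, square and triangle for replicates 1, 2 and 3) for the 12 tested probes of the 10 genes (y axis), with the difference of the population means as a red line. All 3 differences are positive for both Foxa2 probes, between 1.82 and 2.82, and negative for Foxf2, while those of Foxq1 lie on both sides of 0.

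Taken over the genes, 7 of the 10 had a tested probe, that is, one detected above background on each of the 3 arrays of one population or both. At their brightest probe 5 of these 7 (Foxa1, Foxa2, Foxc1, Foxp1 and Foxo1) had every LSC GFP+ sample above every LSC GFP- sample, where 6.49% of all 25615 genes tested did, and 0 of 7 had the reverse, where 5.38% of all genes did. Since the genes were chosen on this contrast, nothing is read from these counts. Of the 10 member probes above background on all 6 arrays, 4 of them of Foxp1, 9 had the higher mean in LSC GFP+ cells. Nothing is read from this count either, and its share over all such probes was not taken. The median log2 difference of all genes tested was -0.01.

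Most other forkhead genes did not pass the test. Of the 34 on the array 23 were tested, and at an unadjusted p under 0.05 in limma 0 were higher and 1 was lower, against 3.37% and 4.29% of all genes. By the methods' t-test 2 were higher and 1 lower, and with the replicate block 2 (Foxd4 and Foxm1) were higher and 1 lower, against 6.50% and 7.70% of all genes under the block. None passed after adjustment over all probes. Their median log2 difference was 0.10. The gene called lower was Foxj1, which switches on the genes of motile cilia. It read -1.70, -1.31 and -0.82 in LSC GFP+ cells and -0.50, -0.43 and -0.06 in LSC GFP- cells. The populations did not overlap, with a log2 difference of -0.95 (limma SE 0.27, unadjusted p = 0.00814, adjusted p = 0.318).

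A further 6 of the 23, Foxd4, Foxe3, Foxj3, Foxm1, Foxn2 and Foxn3, had every LSC GFP+ sample above every LSC GFP- sample without passing that test at the brightest probe, and 6.49% of all genes tested had their samples placed this way. Their log2 differences lay between 0.21 and 0.40. Foxm1, which drives genes of mitosis, had the largest of these: 0.66, 1.16 and 0.91 against 0.41, 0.53 and 0.60 (unadjusted p = 0.0888 in limma). Its dimmer probe differed by 0.53 (unadjusted p = 0.0447, adjusted p = 0.61 in limma). These genes are what remained of the family once the 10 members had been taken out, so the members are not tested against them.

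**Figure D3:**
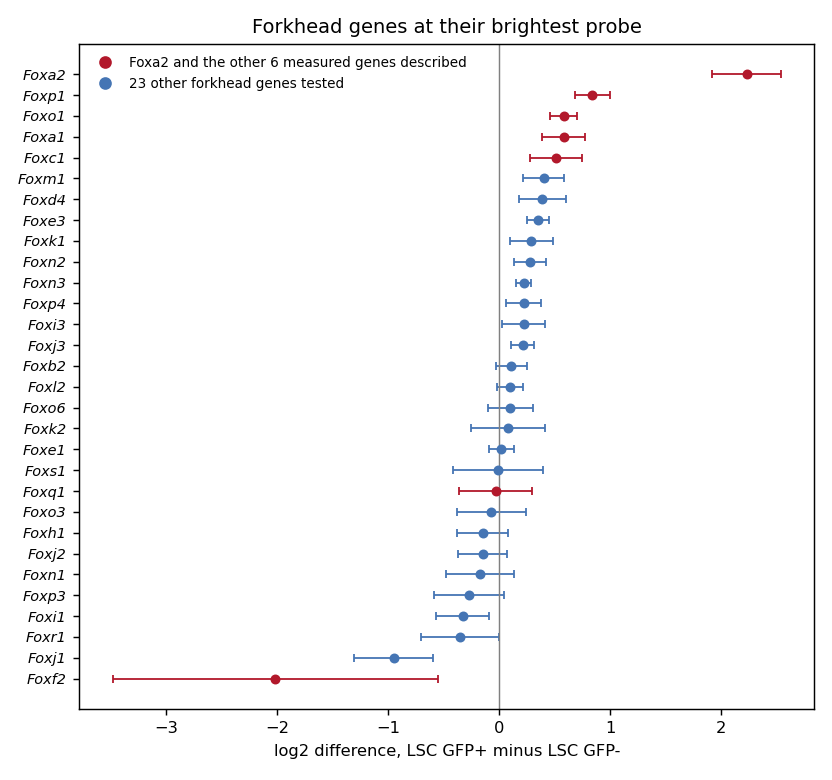
Log2 difference between LSC GFP+ and LSC GFP- cells (x axis) of 30 forkhead genes (y axis) at the brightest probe, in red for the 7 measured genes described and in blue for the 23 others tested; bars show the SD within populations. Foxa2 at 2.23 and Foxf2 at -2.02, the latter partly below background, lie farthest from 0 on either side, and Foxj1 at -0.95 is the lowest of the blue genes.

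The signal of Foxa2 over the arrays was set against that of other genes. Among 23787 genes above background on all 6 arrays, those whose signal followed the brighter Foxa2 probe most closely were Cck (Pearson r = 0.998 over the 6 arrays), Rnf32 (0.997), Moxd1 (0.996), Vcan (0.993) and Zfp131 (0.992). Cck encodes the peptide cholecystokinin and Vcan the matrix proteoglycan versican. Cck read -2.04, -1.92 and -2.08 in LSC GFP+ cells and -3.06, -3.28 and -3.51 in LSC GFP- cells, so that its replicates stood in the same order as those of Foxa2. The genes that ran most against Foxa2 were ENSMUST00000058187 (r = -0.997), ENSMUST00000129389 (-0.994), Lrrc3 (-0.989), Scara3 (-0.988) and Sct (-0.987), the last of which encodes the hormone secretin.

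These r values are a description. The 6 arrays fall into 2 populations, so a gene that separates them tends to follow Foxa2 or to run against it, more or less closely. An r of 0.95 or more was reached by 181 genes, and one of -0.95 or less by 78. Of the other members Foxo1 followed it most closely (r = 0.975), then Foxp1 (0.886), Foxa1 (0.878) and Foxc1 (0.719), while Foxq1 did not (-0.142).

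**Figure D4:**
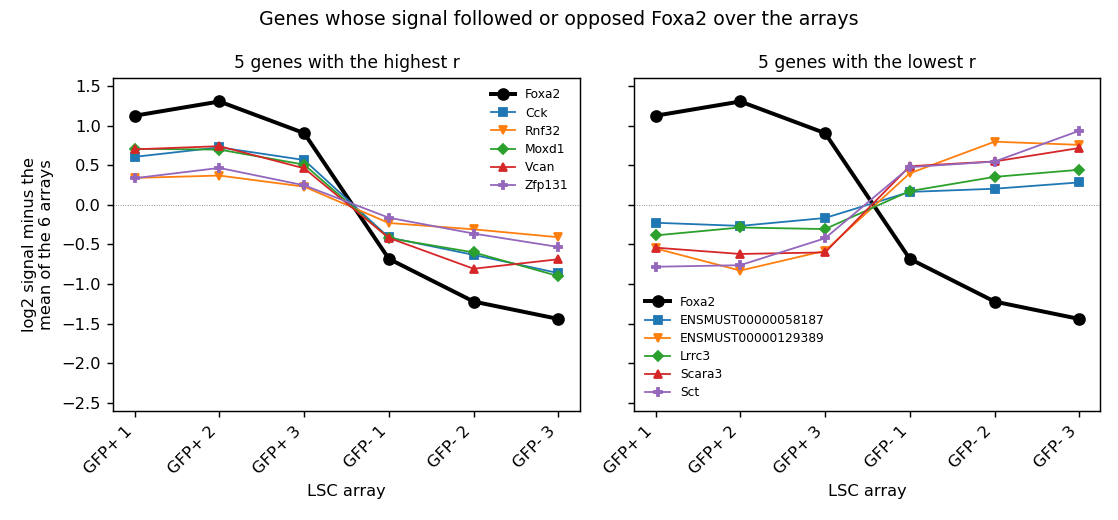
Log2 signal minus the mean of the 6 arrays (y axis) on each LSC array (x axis) for Foxa2 at its brighter probe, in black, with the 5 genes of highest r (left) and of lowest r (right). Among the LSC GFP- samples Foxa2 reads highest in replicate 1 and lowest in replicate 3. Cck, Rnf32, Moxd1 and Zfp131 do too, while Vcan reads lowest in replicate 2.

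Known partners of Foxa proteins were counted next. In these and the lists that follow, calls are at an unadjusted p under 0.05 in limma, where 3.37% of all genes were higher and 4.29% lower, and no listed gene passed after adjustment over all probes. Of 13 such genes, all tested, 1 was higher and 2 were lower (with the replicate block 2, Hoxb13 and Nfib, were higher), and the median log2 difference was 0.08. Hoxb13, a homeobox gene of the prostate and hindgut, was higher in LSC GFP+ cells, at 0.79, 1.18 and 1.23 against 0.33, -0.03 and 0.51. The populations did not overlap, with a log2 difference of 0.80 (limma SE 0.23, unadjusted p = 0.00878, adjusted p = 0.329).

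Gata2, a zinc finger factor known to share sites with Foxa1, was lower in LSC GFP+ cells by a log2 difference of -0.99, at 1.24, 1.79 and 1.99 against 2.38, 2.84 and 2.75 (adjusted p = 0.264 in limma). Tle2, a co-repressor of the Groucho family, was lower at a difference of -1.93 (adjusted p = 0.29 in limma), with wide spread in LSC GFP+ cells, -1.51, -0.29 and -2.54.

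Hedgehog genes were counted because Foxa2 is known to be tied to Shh in endoderm and Foxf genes to hedgehog signals in mesenchyme. Of 14 on the array 13 were tested, 0 were higher and 1, Gli1, was lower, near the 4.29% of all genes. By the methods' t-test 1 was higher and 0 lower, and with the replicate block 1 (Dhh) was higher and 2 (Gli1 and Cdon) were lower. Gli1, a target and effector of the pathway, read -3.19, -5.17 and -4.66 in LSC GFP+ cells, where 1 array was above background, and -1.06, -3.00 and -2.85 in LSC GFP- cells. The log2 difference was -2.03 (adjusted p = 0.381 in limma), and it rests in part on readings below background. The ligand gene Shh did not pass the test, at 2.94, 3.48 and 3.21 against 2.75, 3.14 and 3.01.

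Foxo target genes had 2 higher and 1 lower of 21 tested, and a median of 0.09. With the replicate block, and in 5 other settings, the cyclin gene Ccnd2 was called higher too. Gadd45a, which arrests the cycle after DNA damage, was higher by 0.63, at 3.09, 3.06 and 3.00 against 2.58, 2.22 and 2.47 (adjusted p = 0.353 in limma). Fbxo32, a ubiquitin ligase known from muscle wasting, was higher by 0.59 (adjusted p = 0.376 in limma). Bcl2l11, which encodes the death factor Bim, was lower at a difference of -0.88 (adjusted p = 0.471 in limma). By the methods' t-test Bcl2l11 was not called and the cell cycle inhibitor gene Cdkn1b was the 1 called lower.

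Among prostate secretory and luminal differentiation genes 11 were tested, of which 0 were higher (also 0 by the methods' t-test) and 2 were lower, with a median of -0.22. Pip, a secreted prolactin-induced protein, differed by -1.46 (adjusted p = 0.294 in limma), and Tmprss2, a transmembrane serine protease, by -0.54 (adjusted p = 0.582 in limma).

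Markers of the gate and of other cell types were set beside these results. Basal markers were present in both populations and higher in LSC GFP+ cells for 6 of 9 tested, with a median of 0.70. Krt14 read 4.84, 5.16 and 5.30 against 3.91, 3.68 and 4.18, and Krt5 and Krt15 were higher by 0.70 and 0.52. The summed basal signal, in multiples of the 75th percentile, was 228 to 245 in LSC GFP+ and 171 to 181 in LSC GFP- cells. This moves with Foxa2, Foxa1, Foxp1 and Foxo1, and its part in their differences was not tested. Markers of neuroendocrine cells had 0 higher and 1 lower (Ncam1) of 9 tested, and 0 higher and 6 lower with the replicate block. Chga and Chgb were detected in both populations, and the summed neuroendocrine signal was 5.52 to 8.17 in LSC GFP+ and 9.13 to 25.4 in LSC GFP- cells.

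Smooth muscle markers were lower in LSC GFP+ cells for 6 of 7 tested (median -1.68), and their summed signal was 7.04 to 10.6 against 20.0 to 38.5. Acta2 read 1.28, 0.30 and 1.52 against 3.86, 2.55 and 3.08. Stromal markers were lower for 6 and higher for 1 of 10 tested (median -1.20). Col1a1, Col1a2 and Col3a1 were lower by a difference of -2.18, -2.15 and -1.97, and Dcn was the 1 higher, by 1.19. The summed stromal signal was 19.1 to 25.4 against 21.2 to 60.1. The stromal count of 6 lower fell to 4 with the filter on all 6 arrays and to 4 by the methods' t-test. Some of these calls rest in part on LSC GFP+ readings below background. Apart from Dcn, the called markers of these lists ran the same way as Foxf2 and Gli1, and against Foxc1. Foxc1 lay higher in LSC GFP+ cells by 0.51, and the part of the lists in those differences was not tested. Foxc2 had no usable difference. Lmod1 was the only smooth muscle marker below background on all arrays, and no stromal marker was.

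Markers of the seminal vesicle and Wolffian duct were lower for 4 of 7 tested, Pax2, Pax8, Emx2 and Svs5, and higher for 0. Luminal markers had 0 higher and 2 lower of 7, Cldn3 and Prom1. Urothelial, endothelial, immune, and glial and neuronal lists had 0 called in either direction, with medians of -0.31, -0.25, -0.03 and -0.66. With the replicate block 1 luminal marker (Cldn4) was higher and 4 of the glial and neuronal list were lower.

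**Figure D5:**
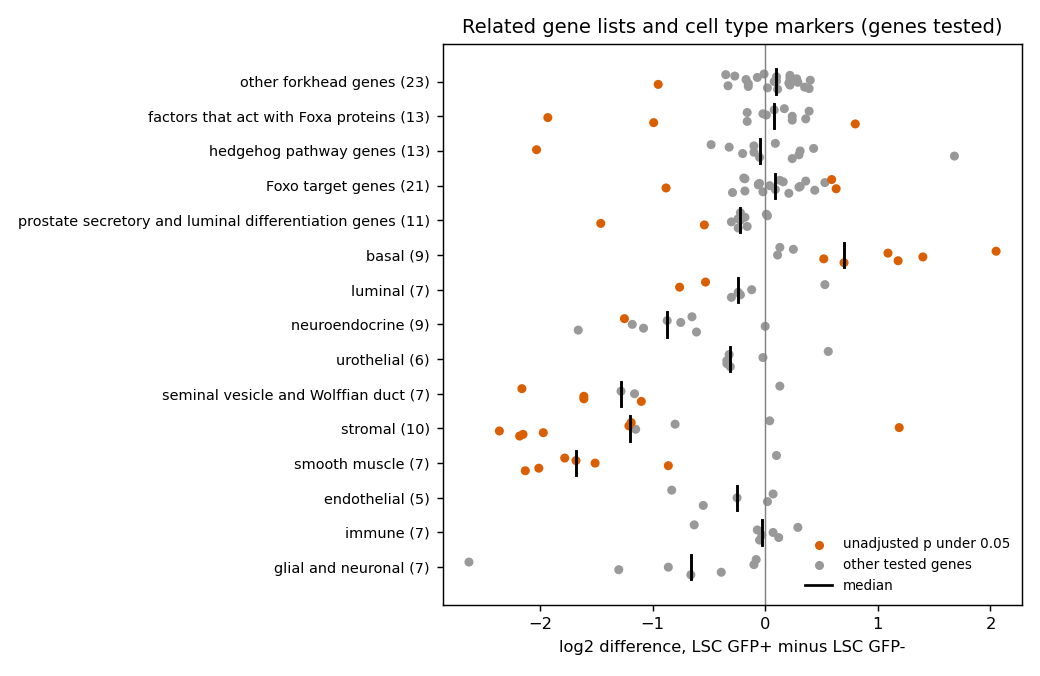
Log2 difference between LSC GFP+ and LSC GFP- cells (x axis) of each tested gene of the related lists and cell type marker lists (y axis, genes tested in brackets), in orange at an unadjusted limma p under 0.05 and in grey otherwise, with the list's median as a black bar. Basal markers lie to the right of 0 with a median of 0.70, and smooth muscle and stromal markers mostly to the left with medians of -1.68 and -1.20.

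The promoters of the members were read for letters that forkhead proteins bind. RefSeq promoters on GRCm38.p6, from 250 bases before to 50 bases after a start, were given for 7 of the 10 genes, 11 promoters in all. Each was searched on both strands for the letters TGTTTAC (and TATTTAC as its close variant) and for TGTTTGC (with TATTTGC as its variant). Of the 11 promoters 2 held such a match, and 13.5% of all 32851 promoters did. The Foxa1 promoter, chr12:57546062-57546361 on the minus strand, held GTAAACA, the reverse complement of TGTTTAC, starting 141 bases before the start. A Foxp1 promoter, chr6:99520944-99521243 on the minus strand, held TGTTTGC 167 bases before the start. The 3 Foxa2 promoters held none. Both matching promoters are shown as members with a forkhead match and without overlap between the populations, with the match in capitals. A match is a description of letters and not a site.
Foxa1 promoter: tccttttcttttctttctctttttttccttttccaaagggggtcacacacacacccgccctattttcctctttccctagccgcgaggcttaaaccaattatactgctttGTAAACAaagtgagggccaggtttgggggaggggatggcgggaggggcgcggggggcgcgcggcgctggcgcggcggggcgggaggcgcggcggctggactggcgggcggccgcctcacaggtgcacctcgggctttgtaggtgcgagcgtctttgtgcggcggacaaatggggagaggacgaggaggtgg
Foxp1 promoter: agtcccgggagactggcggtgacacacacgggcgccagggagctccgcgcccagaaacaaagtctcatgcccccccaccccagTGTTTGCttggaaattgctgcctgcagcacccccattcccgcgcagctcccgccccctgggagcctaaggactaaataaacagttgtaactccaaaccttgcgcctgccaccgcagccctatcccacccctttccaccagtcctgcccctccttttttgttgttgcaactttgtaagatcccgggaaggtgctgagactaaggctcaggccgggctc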

How the data were processed

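RNA from 6 sorted samples was amplified and hybridised to one-colour Agilent arrays with 60-base probes. Per the file headers, the authors extracted the intensity of each spot with Agilent Feature Extraction (11.0.1.1 in the headers, 10.7.3.1 in the submitters' processing notes), which subtracts background; coordinates are mm9. From the deposited processed signal, log2 was taken and each array's 75th percentile of it subtracted. Control spots were left out. Replicate spots were averaged without outlier spots, but a probe whose spots were all outliers kept them. Outlier spots stayed in the percentile. Tested were the 37008 of 55681 probes flagged well above background in each of the 3 arrays of one population or both. The test was limma 3.58.1 in R 4.3.3, two-sided, with Benjamini-Hochberg adjustment over all probes tested. It was also run on simulated data with independent noise for each array. That run lacks the correlation between samples of the same replicate number, so it does not cover this feature of the data. A gene stood by its brightest probe (highest mean over the 6 arrays), and 26582 probes were named through RefSeq.

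Members and lists were chosen with earlier results of these data known, and some genes of the lists are not reported here. Named were all members and every other forkhead gene at an unadjusted p under 0.05, with Foxf1 and Foxl1. Up to 4 genes of a list at that p in each direction were named too. So were up to 3 markers a list, and the 10 genes most like or unlike Foxa2. Also named, after their values were seen, were Chga, Chgb, Ncam1, Ccnd2, Cdkn1b, Cldn4, Tle1, Cldn3, Prom1, Svs5 and Lmod1. The same holds for Dcn, Nfib, Shh, Dhh, Cdon and the 6 forkhead genes without overlap.

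All arrays lay on 1 slide with 1 scan, so no batch could be compared. Replicate numbers come from the sample titles. Deviations from the population means correlated at 0.428, 0.273 and 0.662 for the same number, and between -0.542 and 0.221 for different numbers. Within a population the deviations of a probe cancel out, so the values for different numbers are not separate evidence of pairs. The highest of them, 0.221, lay near the lowest for the same number, 0.273. On these correlations the numbers were treated as pairs in the replicate block and in the differences within a replicate number. The main test, with its SE and p values, took no account of pairs. Alternatives were normexp (offset 50), median and quantile scaling, the authors' value table, stricter and no filter, the methods' Student's test, an intensity trend, the replicate block, other rules for the probe of a gene, and leaving out each array. The number of arrays limits the precision.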

Additional observations from a re-analysis of the deposited data

How the results depend on the processing

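Over every alternative that gave a value, the differences of Foxa1, Foxa2, Foxc1, Foxf2, Foxp1 and Foxo1 kept their sign. Leaving out 1 array at a time, Foxa2 ranged from 2.07 to 2.45, Foxa1 from 0.43 to 0.70, Foxp1 from 0.76 to 0.97, Foxo1 from 0.50 to 0.63 and Foxc1 from 0.41 to 0.66. Foxq1 changed sign in 4 of 14. The mean over probes gave 0.49 for Foxp1 and 0.40 for Foxo1, and normexp background correction 0.25 for Foxc1 and 1.23 for the dimmer Foxa2 probe. The members without overlap, higher, numbered 5, or 6 (Foxq1 added) without LSC GFP+ replicate 1. Those lower numbered 0, but 1 with no filter and 0 to 1 over the arrays left out. The 1 came without LSC GFP+ replicate 1 (Foxf2) and without replicates 2 (Foxf2) and 3 (Foxp2) of LSC GFP-. The shares of all genes tested, 6.49% higher and 5.38% lower, were taken in the main setting alone. Nothing is read from these counts.

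Foxa2 was taken up on the adjusted p of its dimmer probe, so the calls of that probe are no separate support. It entered the test through LSC GFP+ cells, being above background on 2 of the 3 LSC GFP- arrays. In 4 of 15 other settings this probe passed the adjusted threshold. The number of probes past it was 3 with median scaling, 3 with quantile normalization, 1 with the series table values, 0 to 4 over the arrays left out, and 0 with normexp background correction, both other filters, the methods' t-test, the intensity trend and the replicate block. At an unadjusted p under 0.05, 2924 probes were called, 5472 with the replicate block (paired) and 2283 to 4056 over the arrays left out.

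Foxj1 was called lower in every setting. Other forkhead genes called higher numbered 1 with normexp, mean over probes or the smallest p of a gene (Foxm1 each time), 2 with quantile normalization, the methods' t-test or the replicate block, and 0 to 1 over the arrays left out. Those lower numbered 2 with no filter and 1 to 2 over the arrays left out. Partners of Foxa proteins higher numbered 2 with normexp, the methods' t-test, the intensity trend, the replicate block and the mean over probes, and 3 with the smallest p of a gene (Hoxb13, Nfib and Tle1). Hedgehog genes higher numbered 1 with normexp, the methods' t-test and the replicate block and 0 to 1 over the arrays left out. Hedgehog genes lower numbered 2 with normexp, the intensity trend, the replicate block, the mean over probes and the smallest p of a gene, 0 with the filter on all 6 arrays and the methods' t-test, and 1 to 2 over the arrays left out, Gli1 being lost without LSC GFP+ replicate 2. Foxo targets ranged from 1 to 3 higher and 0 to 1 lower over the arrays left out, and Bcl2l11 was lost without replicate 1 of either population, without replicate 3 of LSC GFP+ and by the methods' t-test, which called Cdkn1b in its place. Secretory genes lower numbered 1 with median scaling and quantile normalization, and 1 to 2 over the arrays left out, Pip remaining. Basal markers higher ranged from 4 to 6 and stromal markers lower from 5 to 8 over the arrays left out, and smooth muscle markers lower stayed at 6. Stromal markers lower numbered 4 with the filter on all 6 arrays and by the methods' t-test. With the replicate block the neuroendocrine markers lower numbered 6 in place of 1, the glial and neuronal markers lower 4 in place of 0 and the luminal markers higher 1 in place of 0, and the shares of all genes higher and lower were 6.50% and 7.70% in place of 3.37% and 4.29%. No other list or marker count changed by over 1.5 times under the block. The cause of these changes was not tested. Probes near background, Foxf2 and the dimmer Foxa2 probe among them, are limited by signal over background.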
